A study of Mus musculus with 4 samples.

Results

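Imprinted genes are expressed mainly from the copy inherited from 1 parent. A fixed list of 35 symbols was followed in mouse embryonic stem cells depleted of Cyrano: 34 genes known to be imprinted in the mouse, and Zfp57, whose product keeps imprints in place. All 35 were found by symbol among the 23366 gene rows of the read-count files, and 31 of them, 30 imprinted genes and Zfp57, had enough reads to be tested. The cells were of the R1 line, embryonic stem cells from a 129X1 x 129S1 embryo, which were kept on gelatin in medium with serum, serum replacement and LIF, the cytokine that sustains self-renewal. There were 2 knockdown libraries, from cells transfected with a vector (pSicoR-Ef1a-mCh-Puro) that expresses a short hairpin RNA against Cyrano, and 2 control libraries, from cells given the same vector with a non-targeting hairpin (NTC). Cells of both groups were enriched after transfection by puromycin or by flow cytometry, and the sources used here do not tell which of these served which library. All libraries come from 1 cell line, and reads were counted per gene and not per parental allele, so that a level says nothing of which copy was read.

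Imprinting rests on DNA methylation that is laid down in the egg or the sperm at control regions and then kept through the wave of demethylation in the early embryo. ZFP57, a KRAB zinc finger protein, binds methylated TGCCGC at such regions and recruits TRIM28, which brings in histone and DNA methyltransferases. A control region usually governs several neighbouring genes, so the members are described by cluster. In embryonic stem cells the Dlk1-Dio3 cluster has drawn attention because its maternal noncoding RNAs (Meg3, Rian and Mirg, also known as Gtl2 and its downstream transcripts) are silenced in many mouse induced pluripotent lines of poor developmental potential.

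The start regions of 3 members are shown for the Dlk1-Dio3 and Peg3 clusters, in which all tested members lay on 1 side of the controls. Of the Peg3 cluster, Usp29 and Zim1 had at most 12 reads in a library, and no difference was detectable in them. Each window is from RefSeq (GRCm38.p6) and runs from 250 bases before the annotated start to 50 bases after it, 5′ to 3′. Capitals mark the ZFP57 core motif TGCCGC on either strand. The upstream Meg3 window (chr12:109540746-109541045, + strand), which is the one shown, has the motif once, 190 bases before the start and read as GCGGCA. The other annotated start region of Meg3 (chr12:109545148-109545447, + strand) has none. The windows of Dlk1 (chr12:109452573-109452872, + strand) and Peg3 (chr7:6730370-6730669, - strand) have none.
Meg3: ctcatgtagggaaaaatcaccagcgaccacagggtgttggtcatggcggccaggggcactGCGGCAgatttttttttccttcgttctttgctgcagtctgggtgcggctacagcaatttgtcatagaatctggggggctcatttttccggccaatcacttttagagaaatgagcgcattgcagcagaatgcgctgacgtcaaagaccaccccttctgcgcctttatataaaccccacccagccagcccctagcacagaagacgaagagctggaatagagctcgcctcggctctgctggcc
Dlk1: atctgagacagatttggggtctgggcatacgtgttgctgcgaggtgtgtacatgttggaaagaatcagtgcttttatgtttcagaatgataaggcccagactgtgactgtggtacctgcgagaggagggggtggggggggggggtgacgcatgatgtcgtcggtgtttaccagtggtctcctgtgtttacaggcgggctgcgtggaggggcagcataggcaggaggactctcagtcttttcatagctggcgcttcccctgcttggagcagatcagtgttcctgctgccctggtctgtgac
Peg3: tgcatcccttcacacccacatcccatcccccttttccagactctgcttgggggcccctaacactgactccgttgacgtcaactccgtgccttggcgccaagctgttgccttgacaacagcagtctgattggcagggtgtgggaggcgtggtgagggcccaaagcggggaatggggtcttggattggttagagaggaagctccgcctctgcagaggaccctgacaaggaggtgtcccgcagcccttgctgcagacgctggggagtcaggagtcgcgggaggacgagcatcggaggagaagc
Of the 35 members, 28 had at least 1 RefSeq start region, 46 regions in all. The motif stood in 12 of the 46 (26.1%), against 3813 of the 32851 start regions in the table (11.6%). The regions of 1 gene can overlap, and those of Mest that begin at bases 30737800 and 30737803 of chromosome 6 hold the same motif sites. These shares were not tested against each other, and the base composition of the regions was not matched. Absence from a window says only that these letters are not in it. The windows follow annotated starts and were not chosen as control regions, and neither methylation nor ZFP57 binding was measured. The window of Peg3 overlaps that of Usp29, which is read in the opposite direction, by 263 bases.

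The reads assigned to genes numbered 22321102 and 20761783 in knockdown libraries 1 and 2, and 16854403 and 19138196 in control libraries 1 and 2, so that 1 read corresponds to between 0.0448 and 0.0608 CPM (counts scaled to a total of 1000000 gene reads and for library composition). Cyrano, the targeted long noncoding RNA, is listed as 1700020I14Rik. It had 89 and 68 reads in the knockdown libraries, against 407 and 286 reads in the control libraries. Its level was 3.57 ± 0.585 CPM in knockdown cells and 19.95 ± 6.80 CPM in control cells (mean ± SD, n = 2 each), which is -2.48 ± 0.30 on the log2 fold change scale (SE; edgeR quasi-likelihood test, adjusted p = 0.0070 over all genes), so that Cyrano fell. It was not called without control library 1 (-2.08, adjusted p = 0.120), without control library 2 (-2.79, 0.0567) or by limma-voom (-2.42, 0.0512). The embryonic stem cell label was met by its markers: all 10 listed were detected, and their summed level was 4822 and 4665 CPM in the knockdown libraries, against 4863 and 5152 CPM in the control libraries.

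No imprinted gene changed by the criterion used throughout, an edgeR adjusted p under 0.05 over 13199 tested genes, which 0.0833% of all tested genes met. Limma-voom called none of the 31 either. DESeq2 gave an adjusted p to 23 of them and called 2, Meg3 and Rian, both higher. It called 1.36% of the 9752 genes to which it gave an adjusted p. At an unadjusted edgeR p under 0.05 there were 7 members, against a background of 11.6% of genes: Meg3, Rian, Mirg, Dlk1 and H19 were higher (5 members, background 6.18%), and Peg3 and Igf2r were lower (2 members, background 5.43%). In 16 of the 31 the knockdown libraries did not overlap the control libraries, and the background for that is 43.5%. Both knockdown libraries lay above both controls in 10 members (background 22.3%) and below both in 6 (background 21.3%). Of the 30 imprinted genes tested, 19 lay above 0 on the log2 fold change scale and 11 below. Their median was 0.08, and that of all tested genes was -0.0016. In bulk RNA, more or fewer cells of a type and more or less RNA per cell cannot be told apart.

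**Figure D1:**
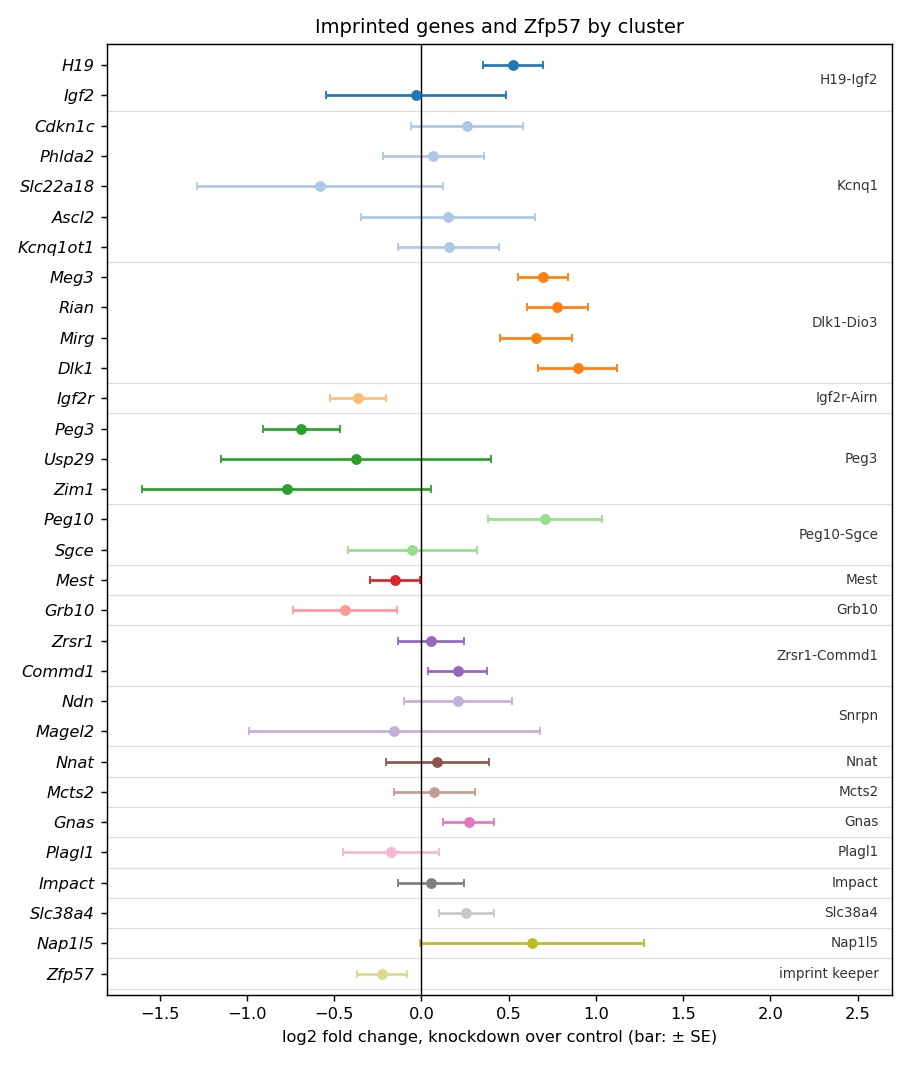
Log2 fold change, knockdown over control, of the 31 tested members, grouped by imprinted cluster; bars show ± SE from the edgeR fit and no member passed an adjusted p of 0.05. The 4 tested members of the Dlk1-Dio3 cluster lie between 0.66 and 0.89, and the 3 of the Peg3 cluster lie below 0. The bars of Usp29 and Zim1, which had few reads, reach across 0.

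The Dlk1-Dio3 cluster on chromosome 12 was the one with more than 1 tested member in which each had both knockdown libraries above both controls. This held for 4 of 4, against a background of 22.3% of all tested genes. Meg3, Rian and Mirg are thought to be parts of 1 long transcription unit, so the 4 are not separate cases. Meg3, a long noncoding RNA of the maternal copy, had 223 and 211 CPM in the knockdown libraries, against 142 and 125 CPM in the control libraries. The lowest knockdown value was well above the highest control value. Its level was 1.62-fold that of the controls, which is 0.70 ± 0.14 on the log2 scale (SE; edgeR adjusted p = 0.0891, DESeq2 adjusted p = 0.0048). Rian, a maternal transcript that hosts C/D box small nucleolar RNAs, had 172 and 203 CPM in the knockdown libraries, against 127 and 91.6 CPM in the control libraries. Again the groups did not overlap, and the log2 fold change was 0.78 ± 0.17 (edgeR adjusted p = 0.117, DESeq2 adjusted p = 0.0120).

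Mirg, the downstream maternal transcript that hosts a large microRNA cluster, had fewer reads than either. Its level was 23.6 and 28.1 CPM in the knockdown libraries, against 16.7 and 16.05 CPM in the control libraries, and the log2 fold change was 0.66 ± 0.20 (edgeR adjusted p = 0.236, DESeq2 0.172). Dlk1, the paternal gene of the cluster, encodes a membrane protein related to Notch ligands. Its level was 22.4 and 27.5 CPM in the knockdown libraries, against 11.6 and 15.2 CPM in the control libraries. At 0.89 ± 0.23 it had the highest log2 fold change of the 31 (edgeR adjusted p = 0.171, DESeq2 0.0505). Among the paternal members of the cluster Dlk1 alone could be tested. Dio3, which is not among the listed members, was also tested and is described below. Rtl1, a paternal gene derived from a retrotransposon, had 2 and 10 reads in the knockdown libraries, against 5 and 3 in the control libraries.

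The groups of these 4 genes did not overlap, so leaving out 1 library could hardly reverse their direction. Such fits show only how far the size of a difference moved. Leaving out each library in turn gave log2 fold changes of 0.61 to 0.79 for Meg3, 0.56 to 1.03 for Rian, 0.53 to 0.77 for Mirg and 0.71 to 1.10 for Dlk1. Rian was called without knockdown library 1 (0.89, edgeR adjusted p = 0.0056), and none of the 4 was called in the 3 other such fits. Differences moved with transcript length across the data. When the tested genes were cut into 5 equal bins by annotated length, the bin of the shortest had a median log2 fold change of 0.12 and the bin of the longest one of -0.14. Meg3 and Rian belong to the bin of the longest and lay above its median. With an offset for transcript length, Meg3 and Rian both stood at 0.94 on the log2 fold change scale (edgeR adjusted p = 0.0308 for each), so that both were called. Mirg (0.67, edgeR adjusted p = 0.184) and Dlk1 (0.94, edgeR adjusted p = 0.111) were not called with that offset. Dio3, a thyroid hormone deiodinase gene that also names the cluster, is not among the listed members. It had 0.179 and 1.90 CPM in the knockdown libraries, against 0.913 and 1.43 CPM in the control libraries. The groups overlapped, and its log2 fold change of -0.18 ± 0.85 was too imprecise to set it apart from the 4 genes. Begain, an outer neighbour of the cluster, lay at -0.25 ± 0.42 on the log2 fold change scale (edgeR adjusted p = 0.869).

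Markers of primitive and visceral endoderm also lay higher in the knockdown libraries. Of 10 listed 7 were tested, and all 7 lay above 0, as did 49.8% of all tested genes. The list summed to 162 and 200 CPM in the knockdown libraries, against 99.8 and 119 CPM in the control libraries. From library 1 to library 2 this sum rose in both groups. Dlk1 and H19 did the same, Meg3 rose in neither group, and Rian and Mirg rose in the knockdown group only. Same-numbered libraries share only a number, and these movements were not tested. None of the 7 markers was called by edgeR. Gata4, Gata6, Sox17, Pdgfra and Foxa2 had an unadjusted edgeR p under 0.05, with log2 fold changes of 0.79 to 1.10. The background for that threshold is 11.6% of genes. DESeq2 called Pdgfra (adjusted p = 0.0042) and Gata4 (0.0492). Afp, Ttr and Apoa1, which mark mature visceral endoderm, were at or near 0, with at most 0.358 CPM in a library. Dlk1 and H19 are also known from endoderm derivatives, and the part of such cells in the values of the imprinted genes was not tested. Among the stem cell markers, Nanog had 129 and 133 CPM in the knockdown libraries, against 216 and 228 CPM in the control libraries. Its log2 fold change was -0.76 ± 0.14 (edgeR adjusted p = 0.0696, DESeq2 adjusted p = 0.00058). Esrrb also lay lower (-0.35 ± 0.15, edgeR adjusted p = 0.375) and Dppa5a lay higher (0.40 ± 0.16, edgeR adjusted p = 0.350), and the part of the cells' state in the values of the imprinted genes was not tested either.

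The files also list 58 microRNA precursors that lie between Dlk1 and Dio3. None had enough reads to be tested, and 32 had no read in any library. Their reads summed to 39 and 42 in the knockdown libraries, against 34 and 21 in the control libraries, or 1.75 and 1.95 CPM in the knockdown libraries, against 2.07 and 1.11 CPM in the control libraries. The groups overlapped. Libraries of polyadenylated RNA hold mature microRNAs poorly, and reads that overlap both a host transcript and a precursor may be set aside as ambiguous, so these rows say little of the microRNAs themselves.

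**Figure D2:**
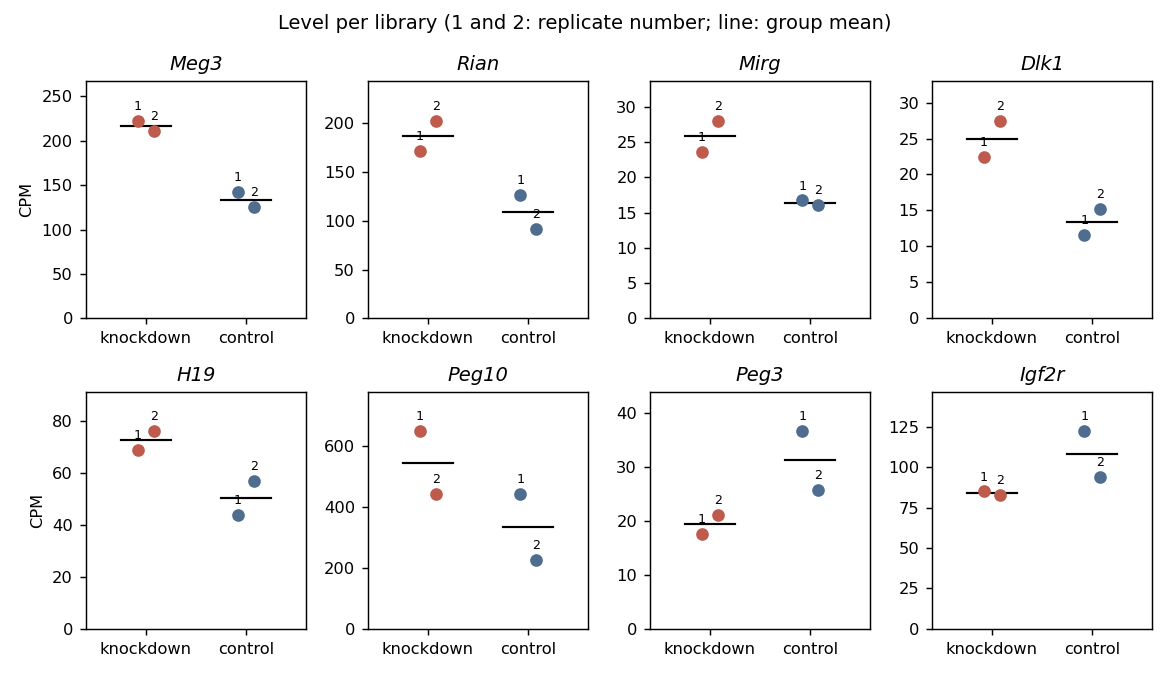
Level in CPM of 8 imprinted genes in each library, with the replicate number beside each point and a line at the group mean (n = 2 each). In Meg3, Rian, Mirg, Dlk1 and H19 both knockdown libraries lie above both controls, in Peg3 and Igf2r both lie below, and in Peg10 the lower knockdown library and the higher control library nearly coincide.

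The H19-Igf2 cluster held 1 gene that lay above the controls and 1 with few reads. H19, a maternal noncoding RNA, had 69.1 and 76.1 CPM in the knockdown libraries, against 43.8 and 57.0 CPM in the control libraries, and the groups did not overlap. Its log2 fold change was 0.53 ± 0.17 (edgeR adjusted p = 0.251, DESeq2 0.192). With each library left out in turn it ran from 0.35 (without control library 1, edgeR adjusted p = 0.707) to 0.73 (without control library 2, 0.192). Igf2, the paternal growth factor gene that competes with H19 for shared enhancers, was sparse, with 33 and 39 reads in the knockdown libraries, against 30 and 29 reads in the control libraries. Its log2 fold change was -0.03 ± 0.52, and no difference was detectable at this depth.

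In the Kcnq1 cluster none of 5 tested members had groups that did not overlap, against a background of 43.5% of all tested genes. Kcnq1ot1, the long paternal RNA that silences the cluster in cis, had 56.6 and 44.0 CPM in the knockdown libraries, against 60.0 and 30.5 CPM in the control libraries. The 2 controls were further apart than the group means, and the log2 fold change was 0.16 ± 0.29 (adjusted p = 0.882). Without control library 2 it was -0.26, and with the length offset 0.63 (edgeR adjusted p = 0.146). Its maternal targets were sparse. Cdkn1c, which encodes the cell cycle inhibitor p57, averaged 7.79 ± 1.01 CPM in knockdown cells and 6.48 ± 2.37 CPM in control cells (SD, n = 2 each). Phlda2, a gene that limits placental growth, averaged 9.38 ± 3.02 CPM in knockdown cells and 8.95 ± 0.156 CPM in control cells. Ascl2, a trophoblast transcription factor gene, averaged 2.27 ± 1.17 CPM in knockdown cells and 2.04 ± 0.0395 CPM in control cells. The transporter gene Slc22a18 had 12 and 18 reads in the knockdown libraries, against 11 and 26 reads in the control libraries. The log2 fold changes of these 4 ran from -0.58 ± 0.71 (Slc22a18) to 0.26 ± 0.32 (Cdkn1c).

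The Peg3 cluster was the one with more than 1 tested member in which all lay lower, 3 of 3. Over all tested genes, 6624 of 13199 lay below 0 on the log2 fold change scale. In 21.3% of them both knockdown libraries lay below both controls. Peg3, a paternal zinc finger gene, had 17.6 and 21.1 CPM in the knockdown libraries, against 36.6 and 25.8 CPM in the control libraries. The groups did not overlap, and the log2 fold change was -0.69 ± 0.22 (edgeR adjusted p = 0.238, DESeq2 0.164). Usp29, which encodes a ubiquitin-specific protease and starts beside Peg3 in the opposite direction, had 12 and 10 reads in the knockdown libraries, against 11 and 12 reads in the control libraries. Zim1, a maternal zinc finger gene, had 9 and 7 reads in the knockdown libraries, against 12 and 10 reads in the control libraries. At such depth the log2 fold changes of Usp29 (-0.38 ± 0.77) and Zim1 (-0.77 ± 0.83) were smaller than their standard errors, and no difference was detectable. Peg3 belongs to the bin of the longest transcripts, and with the length offset its log2 fold change was -0.51 (edgeR adjusted p = 0.342). Without control library 1 it was -0.42 (0.762).

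Igf2r, the maternal gene of the receptor that clears IGF2, had 85.1 and 82.7 CPM in the knockdown libraries, against 122 and 93.7 CPM in the control libraries. Both knockdown libraries lay below both controls, and the log2 fold change was -0.36 ± 0.16 (edgeR adjusted p = 0.404, DESeq2 0.437). With the length offset it was -0.19, and without control library 1 it was -0.16. Airn, the paternal RNA that runs antisense through Igf2r and silences it in cis, had 2 and 5 reads in the knockdown libraries, against 0 and 1 in the control libraries, and was not tested. No source used here tells whether the counts took account of strand, so that reads from these overlapping genes cannot be told apart.

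Peg10, a paternal gene derived from a retrotransposon and needed in the placenta, had the most reads of any member in 3 of the 4 libraries, with 14506 and 9544 in the knockdown libraries, against 7273 and 4277 in the control libraries. Its level was 650 and 443 CPM in the knockdown libraries, against 442 and 227 CPM in the control libraries. Libraries of the same group differed as much as the groups did, and in both groups replicate 1 was the higher. The log2 fold change was 0.71 ± 0.33 (edgeR adjusted p = 0.465, DESeq2 0.692). It was called without knockdown library 2 (0.96, edgeR adjusted p = 0.0124), and it was 1.27 without control library 1 and 0.30 without control library 2. Sgce, which encodes epsilon-sarcoglycan and starts beside Peg10 in the opposite direction, had 3.85 and 3.48 CPM in the knockdown libraries, against 4.50 and 3.12 CPM in the control libraries, a log2 fold change of -0.05 ± 0.37.

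Among members that stand alone or in pairs, several were abundant and lay near the controls. Mest, a paternal gene of a hydrolase-like protein, had 243 and 223 CPM in the knockdown libraries, against 276 and 243 CPM in the control libraries (log2 fold change -0.15 ± 0.14, adjusted p = 0.720). Slc38a4, an amino acid transporter gene, had 261 and 255 CPM in the knockdown libraries, against 244 and 187 CPM in the control libraries (0.26 ± 0.16, adjusted p = 0.552). Without control library 2 the log2 fold change of Slc38a4 was 0.076, and without control library 1 it was 0.46. Gnas, which encodes the stimulatory G protein alpha subunit and other products counted in the same row, had 149 and 150 CPM in the knockdown libraries, against 112 and 136 CPM in the control libraries (0.27 ± 0.15, adjusted p = 0.504). Without control library 1 the log2 fold change of Gnas was 0.14, and without control library 2 it was 0.41. In Slc38a4 and Gnas both knockdown libraries lay above both controls, by less than the controls differed from each other.

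Impact, whose product restrains the amino acid sensor kinase GCN2, had 111 and 169 CPM in the knockdown libraries, against 128 and 141 CPM in the control libraries, and the controls lay between the knockdown values. Commd1, a gene of copper handling and NF-kB control, had 40.4 and 40.8 CPM in the knockdown libraries, against 34.9 and 35.4 CPM in the control libraries (0.21 ± 0.17, adjusted p = 0.673). Zrsr1, a retrogene for a splicing factor that sits inside an intron of Commd1, had 28.3 and 27.9 CPM in the knockdown libraries, against 24.8 and 29.3 CPM in the control libraries (0.05 ± 0.19). Mcts2, a retrogene within the gene H13, had 35.4 and 26.9 CPM in the knockdown libraries, against 36.1 and 23.1 CPM in the control libraries (0.07 ± 0.23). Zrsr1 and Mcts2 derive from the genes Zrsr2 and Mcts1, and reads that fit both copies would be lost or split, which makes their counts uncertain.

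The other 6 tested members were scarce. Grb10, an adaptor gene that dampens insulin signalling, had 4.84 and 5.71 CPM in the knockdown libraries, against 7.36 and 6.94 CPM in the control libraries (-0.44 ± 0.30, adjusted p = 0.600). Ndn (necdin), best known from neurons, averaged 16.5 ± 3.49 CPM in knockdown cells and 14.2 ± 6.66 CPM in control cells (SD, n = 2 each). Nnat (neuronatin), another gene of neurons, averaged 14.6 ± 4.73 CPM in knockdown cells and 13.7 ± 4.50 CPM in control cells. In both genes the groups overlapped. Plagl1, a zinc finger gene linked to growth control, averaged 8.03 ± 0.529 CPM in knockdown cells and 9.09 ± 1.77 CPM in control cells. Nap1l5, of the nucleosome assembly protein family, had 30 and 29 reads in the knockdown libraries, against 20 and 10 reads in the control libraries, and both knockdown values lay above both controls after scaling. Magel2, a MAGE family gene beside Ndn, had 7 and 14 reads in the knockdown libraries, against 8 and 11 reads in the control libraries. None of these 6 had an edgeR adjusted p under 0.600.

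Snrpn, whose locus is among the best studied in imprinting, had 5 and 3 reads in the knockdown libraries, against 0 and 5 in the control libraries, and was not tested. Snurf, which is read from the same transcript, had no read in any library. The sources used here do not state how the counting treated this overlap, and the part of that overlap in the low count was not tested. Dcn, the gene of the matrix proteoglycan decorin, also had no read. In these libraries a count of 0 allows a level of up to 0.134 to 0.183 CPM, by the rule of 3 counts, which covers counting error only.

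Levels between genes were compared as CPM per kilobase of the longest annotated transcript. By group mean the order in knockdown cells began with Mest (87.5), Peg10 (82.0), Zfp57 (70.2), Slc38a4 (65.6), Gnas (37.9), Impact (37.2), Mcts2 (34.1) and H19 (31.8). In control cells these 8 stood at 97.4, 50.2, 82.1, 54.9, 31.4, 35.9, 32.5 and 22.1 CPM per kilobase. In the knockdown libraries Zfp57 did not overlap Slc38a4, and Slc38a4 did not overlap Gnas; the other neighbours in this order overlapped, and no order was tested. Rian (23.2 in knockdown and 13.5 in control cells) and Meg3 (14.9 and 9.19) came next among the noncoding RNAs. Dlk1 (5.37 and 2.88) and Mirg (6.76 and 4.29) were lower. Kcnq1ot1, whose annotated transcript spans 93092 bases, stood at 0.540 and 0.486 CPM per kilobase in knockdown and control cells. The scale depends on which transcript is expressed, and a cell that uses a shorter one has a higher true level.

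**Figure D3:**
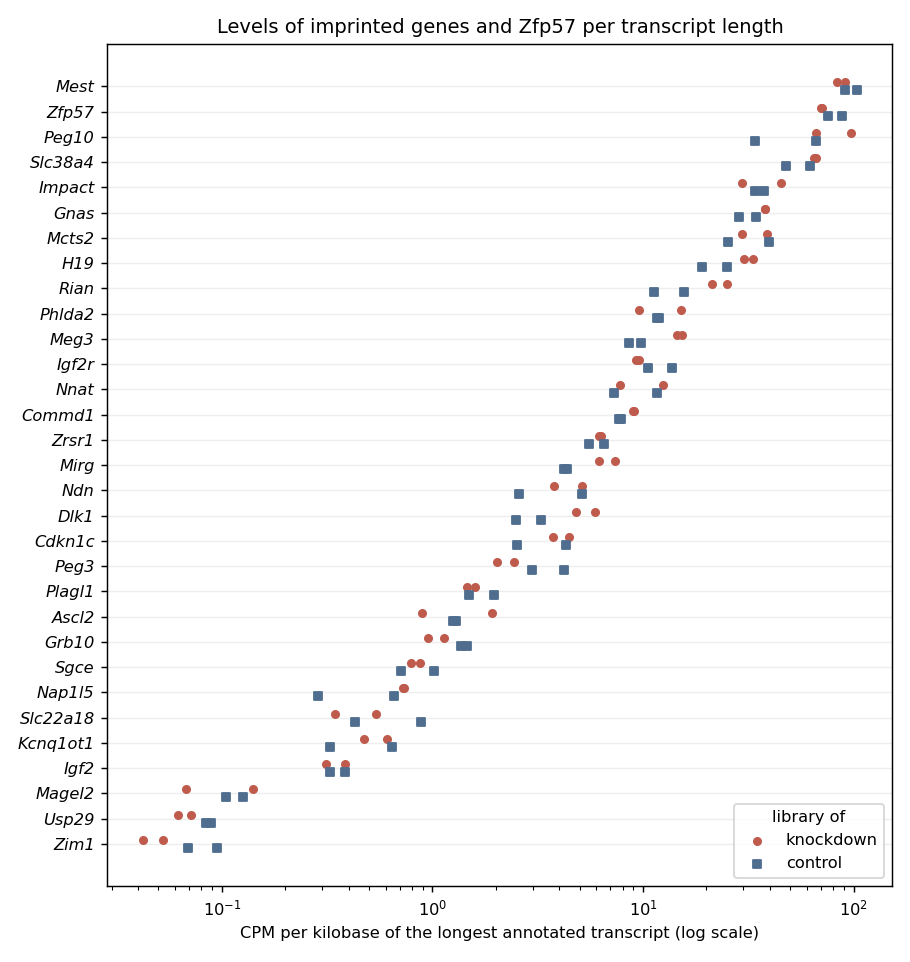
Level of each of the 31 tested members in each library, as CPM per kilobase of the longest annotated transcript, on a log axis (circles: knockdown libraries; squares: control libraries). Levels span from Zim1 at the bottom to Mest at the top, and the knockdown circles of Rian, Meg3, Mirg and Dlk1 lie to the right of the control squares.

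By the parent of origin usually reported in the mouse, 13 of the tested genes are maternal and 17 paternal. Among the maternal genes 9 lay above 0 on the log2 fold change scale (median 0.21), and 5 had an unadjusted p under 0.05 (Meg3, Rian, Mirg and H19 higher, Igf2r lower). Among the paternal genes 10 lay above 0 (median 0.05), and 2 had an unadjusted p under 0.05 (Dlk1 higher, Peg3 lower). The background for the unadjusted threshold is 11.6% of genes. The 3 maternal noncoding RNAs of the Dlk1-Dio3 cluster are thought to be parts of 1 long transcription unit, so they are not separate cases. Outside the Dlk1-Dio3 cluster, 15 of 26 tested imprinted genes lay above 0, 3 had an unadjusted p under 0.05 and the median was 0.06. The difference between maternal and paternal genes was not tested.

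Zfp57 itself had 181 and 184 CPM in the knockdown libraries, against 197 and 230 CPM in the control libraries. The knockdown libraries lay below both controls, and the log2 fold change was -0.23 ± 0.14 (edgeR adjusted p = 0.575). A list of 32 other genes for proteins that keep, write or erase imprints was all tested. None was called by edgeR or limma-voom, nor by DESeq2 among the 30 to which it gave an adjusted p, and 5 had an unadjusted p under 0.05 (3 higher and 2 lower), which is 15.6% against a background of 11.6%. Trim28, the partner of ZFP57, had 1818 and 1713 CPM in the knockdown libraries, against 1797 and 1991 CPM in the control libraries (-0.10 ± 0.14, adjusted p = 0.828). Dnmt1, the maintenance methyltransferase gene, had 437 and 332 CPM in the knockdown libraries, against 472 and 403 CPM in the control libraries (-0.18 ± 0.16, adjusted p = 0.705). Ctcf, whose product insulates Igf2 from its enhancers, had 140 and 154 CPM in the knockdown libraries, against 154 and 151 CPM in the control libraries (-0.05 ± 0.14).

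The 2 lower genes were Uhrf1, which guides DNMT1 to replicated DNA (-0.34 ± 0.15, edgeR adjusted p = 0.428), and Tet2, which encodes an enzyme that oxidises methylcytosine (-0.73 ± 0.20, adjusted p = 0.197). Uhrf1 had 332 and 275 CPM in the knockdown libraries, against 412 and 354 CPM in the control libraries. The 3 higher genes were Dnmt3a, a de novo methyltransferase gene (0.49 ± 0.14, adjusted p = 0.212), Eed, of Polycomb complex PRC2 (0.53 ± 0.15, adjusted p = 0.199), and Mbd3, of the NuRD complex (0.53 ± 0.15, adjusted p = 0.193). Dnmt3a had 318 and 287 CPM in the knockdown libraries, against 228 and 203 CPM in the control libraries. Dppa3, which guards the maternal genome against demethylation, was scarce, with 1.43 and 0.836 CPM in the knockdown libraries, against 0.365 and 1.01 CPM in the control libraries.

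A second list held 49 further genes reported as imprinted in some mouse tissue or lying in imprinted regions. Of these 46 were in the files and 32 were tested. None was called by edgeR or by limma-voom, and DESeq2 called none of the 24 to which it gave an adjusted p. On the log2 fold change scale 14 lay above 0 and 18 below, and the median was -0.05. At an unadjusted p under 0.05 there were 2 higher and 3 lower, against the background of 11.6%. The higher ones were Mkrn3, a paternal gene of the Snrpn region, with 7.75 and 8.32 CPM in the knockdown libraries against 5.17 and 5.19 CPM in the controls (0.63 ± 0.29, edgeR adjusted p = 0.428), and Smoc1 (0.40 ± 0.16, adjusted p = 0.368). The lower ones were Ampd3 (-0.84 ± 0.29, adjusted p = 0.295), Ddc (-0.63 ± 0.21, adjusted p = 0.275) and Cobl (-0.39 ± 0.16, adjusted p = 0.357). Ddc and Cobl flank Grb10, which also lay lower in both knockdown libraries (edgeR adjusted p = 0.600). Both knockdown libraries lay below both controls in 21.3% of all tested genes, and these neighbours were not tested together. Other neighbours of members lay between -0.52 (Osbpl5, near Phlda2) and 0.57 (Casd1, beside Sgce) on the log2 fold change scale. Among them H13, around Mcts2, lay at -0.05 ± 0.19, Herc3, around Nap1l5, at -0.26 ± 0.34, Copg2, beside Mest, at 0.07 ± 0.17, Blcap, around Nnat, at 0.20 ± 0.19 and Ube3a, the maternal gene beyond Snrpn, at 0.16. In the Kcnq1 region Tssc4 (0.15), Cd81 (0.16) and Nap1l4 (0.22) lay above 0, and Tspan32 (-0.32) and Osbpl5 (-0.52) lay below. Both knockdown libraries lay above both controls in Tssc4 and Nap1l4 (background 22.3%) and below both in Osbpl5 (background 21.3%). Kcnq1 itself had no read in any library.

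Markers of the other cell types that such a culture could hold were also summed. Neural markers stood at 188 and 197 CPM in the knockdown libraries, against 209 and 239 CPM in the control libraries. Mesoderm markers stood at 21.8 and 14.7 CPM in the knockdown libraries, against 26.2 and 11.1 CPM in the control libraries. In the neural list Ncam1 (-1.07 ± 0.21) and Pax6 (-1.10 ± 0.48) lay lower and Nes (0.74 ± 0.24) lay higher at an unadjusted p under 0.05, and in the mesoderm list Meox1 lay lower (-1.57 ± 0.54). EdgeR called none of these, and DESeq2 called Ncam1 (adjusted p = 0.0031). Trophectoderm markers summed to 53.8 and 63.9 CPM in the knockdown libraries, against 54.3 and 56.5 CPM in the control libraries. Fibroblast and feeder markers summed to 60.7 and 33.4 CPM in the knockdown libraries, against 51.8 and 38.8 CPM in the control libraries, most of it Thy1, while Col3a1, Lum and Postn had no read.

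**Figure D4:**
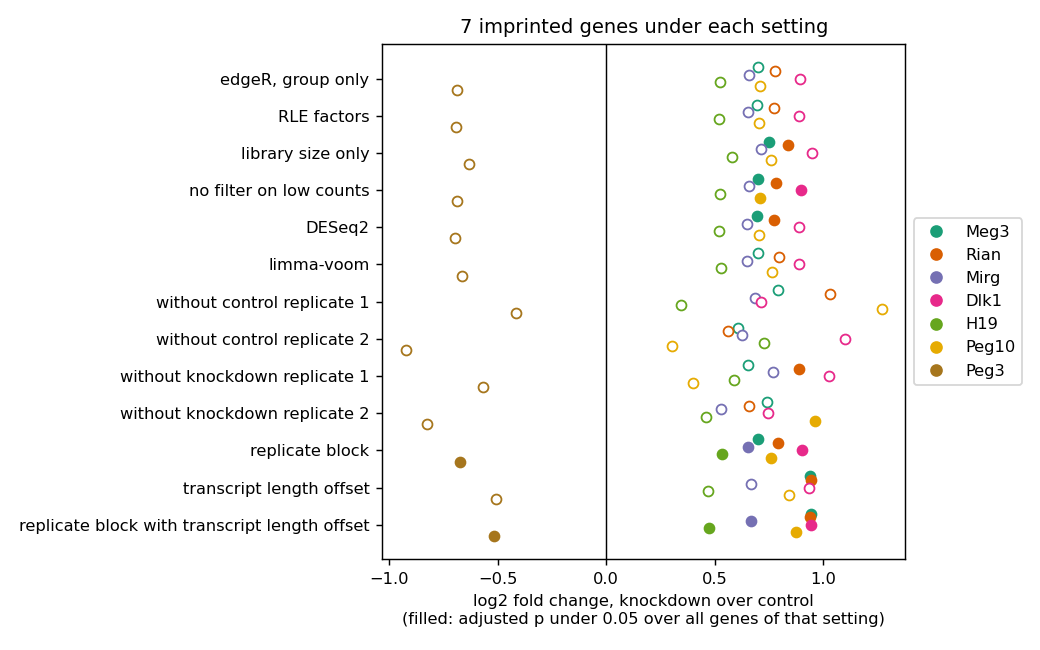
Log2 fold change, knockdown over control, of 7 imprinted genes under each way of processing the counts; filled points passed an adjusted p of 0.05 over all genes tested in that setting. Meg3, Rian, Mirg, Dlk1, H19 and Peg10 lie above 0 and Peg3 lies below 0 in each of the 13 settings, and in the top setting no point is filled.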

How the data were processed

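Polyadenylated RNA of 2 knockdown and 2 control libraries was sequenced with a strand-specific dUTP method, per the labels' protocols. Each deposited file gives the raw counts of 1 library by gene symbol. TopHat, HTSeq, SAMtools and bedtools with build mm9 are named in the submitters' processing notes; the sources used here give no version, annotation or strand setting. The 5 tallies that name no gene (33.1% to 40.8% of tallied reads, mostly reads without a unique alignment) were left out. Titles gave the groups and the replicate numbers. The libraries are biological replicates by the submitters' design text, but whether they came from separate cultures is not said, and p-values then measure only the spread of these 4 libraries. Pairs of replicates differed far beyond sampling noise (chi-square over degrees of freedom 20.5 for the knockdown and 25.4 for the control pair) and each counted once.

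The test was that of edgeR 4.0.16 (R 4.3.3): filterByExpr (minimum count 10), TMM factors, and robust glmQLFit and glmQLFTest on group, two-sided, with Benjamini-Hochberg adjustment over all tested genes and a threshold of 0.05. A standard error was taken as the size of the log2 fold change divided by the root of F. The smallest p that exact permutation of these 4 libraries allows is 0.333. Alternatives used DESeq2 1.42.0, limma-voom (limma 3.58.1), other factors, no filter, each library left out, the replicate block, and an offset for transcript length (lowess, span 0.3). Lengths came from GENCODE M21 (GRCm38), matched by symbol or unique RefSeq synonym for 98.5% of 23366 symbols. The script was tested on simulated data. The members and gene lists were chosen with earlier results of these data known. Members with an unadjusted p under 0.05 or at least 20 CPM, and genes of further lists that reached that p, were named with their values; all other members are accounted for.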

Additional observations from a re-analysis of the deposited data

Results flagged for a closer look

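Reads that fit more than 1 gene are tallied apart from the gene counts. They were 0.568% and 0.600% of tallied reads in the knockdown libraries (mean 0.584%), against 0.459% and 0.513% in the control libraries (mean 0.486%). Both knockdown libraries lay above both controls in this signal outside the gene counts. Several members overlap other listed genes (Snrpn with Snurf, Airn with Igf2r, Rian and Mirg with small RNAs), and how many of these reads fell on them was not tested.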

How the results depend on the processing

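Of 31 tested members, 17 kept the direction of their log2 fold change in each alternative that gave an adjusted p, among them Meg3, Rian, Mirg, Dlk1, H19, Peg3, Igf2r and Peg10. The other 14 had a reversal in at least 1. In 16 of the 31 members the groups did not overlap, so a left-out library could hardly reverse them. The other settings refit the same 4 libraries, so a kept direction is not separate evidence. Of 364 values in all, 305 kept direction and stayed uncalled, 27 kept direction and were called, and 32 were reversed. The cause was not tested.

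Genes called over all genes were 5 higher and 6 lower. RLE factors gave 2 and 4, library size only 32 and 18, no filter on low counts 174 and 158, DESeq2 71 and 62, limma-voom 1 and 2, and the length offset 18 and 16. Leaving out a library gave 0 to 60 higher and 0 to 131 lower. Imprinted genes called were 0 in each direction; 2 were higher with library size only (Meg3 and Rian), 4 with no filter (with Dlk1 and Peg10), 2 by DESeq2, 2 with the length offset, and 0 to 1 with a library left out. Cyrano was not called by limma-voom (-2.42), and its range over left-out libraries was -2.79 to -2.08.

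Same-numbered libraries deviated from their group means together (r = 0.24 across genes), but with 2 pairs the samples share only a number. With the replicate block, 504 genes were higher and 451 lower, of which 6 imprinted genes were higher (Meg3, Rian, Mirg, Dlk1, H19 and Peg10) and 1 was lower (Peg3). With the block and the length offset there were 493 and 378, of which 7 and 1 were imprinted; the added gene was Kcnq1ot1 (0.62, edgeR adjusted p = 0.00126).

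Reversed values on the log2 scale were, for Igf2, 0.027 with library size only, 0.018 with the length offset and 0.017 with the block and length offset; for Phlda2, -0.087 with the length offset and -0.12 with the block too; for Ascl2, -0.048 with the block and length offset; for Sgce, 0.0015 with library size only; for Nnat, -0.025 with the length offset and -0.032 with the block too; and for Mcts2, -0.10 with the length offset and -0.061 with the block too. With a library left out, values ranged from -0.18 to 0.10 for Igf2, from -0.068 to 0.69 for Cdkn1c, from -0.31 to 0.37 for Phlda2, from -0.9998 to 0.034 for Slc22a18, from -0.51 to 0.60 for Ascl2, from -0.26 to 0.72 for Kcnq1ot1, from -0.30 to 0.23 for Sgce, from -0.063 to 0.18 for Zrsr1, from -0.20 to 0.79 for Ndn, from -0.76 to 0.27 for Magel2, from -0.28 to 0.47 for Nnat, from -0.22 to 0.43 for Mcts2, from -0.37 to 0.034 for Plagl1 and from -0.28 to 0.32 for Impact. Of members that kept their direction, Mest ran from -0.24 to -0.060, Nap1l5 from 0.14 to 1.33 and Zfp57 from -0.33 to -0.11. The lowest depth per library, 16854403 reads, leaves members with under about 40 reads with standard errors of 0.5 or more.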
